A study of Mus musculus with 15 samples.

Results

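A set of 191 protein-coding genes stood higher in every kidney of mice given angiotensin II (Ang II) alone than in any kidney of the saline control or the QDG-treated group, out of 11107 protein-coding genes tested (1.72%). They were selected on their measured values. The level of a gene was the sum, over its listed transcripts, of the deposited FPKM (fragments scaled to the length of the transcript and to the mapped total of the library), and a gene was taken where the lowest of the 5 Ang II mice lay above the highest of the 10 mice of the Control and Ang II + QDG groups. Genes under 1 FPKM in more than 10 of the 15 mice were not tested. Because the rule uses both contrasts that involve the Ang II group, the values of these genes in those contrasts are given as a description, without a test.

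The study asked how Qingda granule (QDG), a Chinese herbal formula given for hypertension, acts on the kidney of mice made hypertensive by Ang II. All 15 mice were wild-type male C57BL/6, 8 weeks old at purchase. RNA of the whole renal tissue was sequenced after removal of ribosomal RNA and, by the study's methods, use of a poly(A) mRNA kit. The 5 Control mice carried osmotic pumps with saline for 28 days and were gavaged with water. The 5 Ang II mice received 500 ng/kg/min of Ang II over the same 28 days and water by gavage, and the 5 Ang II + QDG mice received the same Ang II infusion and 1.145 g/kg/day of QDG by gavage. Each library is 1 mouse, so n = 5 per group throughout, and mouse numbers only name the mice. QDG without Ang II was not among the groups, so an effect of QDG on these genes in the absence of Ang II could not be measured.

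Ang II is the effector peptide of the renin-angiotensin system. Through its type 1 receptor it constricts vessels, raises sodium reabsorption along the tubule and, in excess, drives injury, matrix deposition and inflammation in the kidney. In whole tissue every gene is measured as an average over tubules, glomeruli, vessels and interstitium, so that fewer cells of a type and less RNA per cell cannot be told apart.

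The promoters of 5 of the genes described below are shown for orientation, because they belong to the genes with the clearest steps or to gene groups with many members. Each is the 250 bases before the annotated start (RefSeq, GRCm38.p6), written 5′ to 3′ on the strand of the gene, with the letters CCAAT and GGGCGG (or their reverse complements) in capitals. The RefSeq start lay 0 to 105 bases from that of the most abundant GENCODE transcript. Idi1 and Nsdhl encode enzymes of sterol synthesis, Tubb4b a tubulin, Tnfrsf12a a cytokine receptor and B4galt5 a galactosyltransferase.
Idi1 (chr13:8885356-8885605, plus strand): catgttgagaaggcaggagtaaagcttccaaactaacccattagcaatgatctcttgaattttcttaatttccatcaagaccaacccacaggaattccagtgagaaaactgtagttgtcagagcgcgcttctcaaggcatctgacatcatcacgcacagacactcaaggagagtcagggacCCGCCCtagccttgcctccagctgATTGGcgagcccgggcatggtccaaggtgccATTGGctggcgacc
Nsdhl (chrX:72918271-72918520, plus strand): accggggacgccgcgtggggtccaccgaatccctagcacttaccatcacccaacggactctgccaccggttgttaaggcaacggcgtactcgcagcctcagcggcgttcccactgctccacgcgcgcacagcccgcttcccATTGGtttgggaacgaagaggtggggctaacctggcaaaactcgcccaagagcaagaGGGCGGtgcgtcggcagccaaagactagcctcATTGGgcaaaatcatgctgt
Tubb4b (chr2:25224703-25224952, minus strand): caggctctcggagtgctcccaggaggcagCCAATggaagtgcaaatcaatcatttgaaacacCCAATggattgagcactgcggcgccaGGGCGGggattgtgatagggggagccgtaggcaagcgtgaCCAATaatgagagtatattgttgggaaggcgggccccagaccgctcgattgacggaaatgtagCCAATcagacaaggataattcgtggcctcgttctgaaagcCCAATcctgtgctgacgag
Tnfrsf12a (chr17:23677450-23677699, minus strand): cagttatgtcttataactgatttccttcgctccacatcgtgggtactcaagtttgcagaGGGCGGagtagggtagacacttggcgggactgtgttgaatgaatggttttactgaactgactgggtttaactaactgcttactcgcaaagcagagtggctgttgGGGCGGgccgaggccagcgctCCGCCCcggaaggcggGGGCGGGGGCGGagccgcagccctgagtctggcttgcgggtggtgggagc
B4galt5 (chr2:167349179-167349428, minus strand): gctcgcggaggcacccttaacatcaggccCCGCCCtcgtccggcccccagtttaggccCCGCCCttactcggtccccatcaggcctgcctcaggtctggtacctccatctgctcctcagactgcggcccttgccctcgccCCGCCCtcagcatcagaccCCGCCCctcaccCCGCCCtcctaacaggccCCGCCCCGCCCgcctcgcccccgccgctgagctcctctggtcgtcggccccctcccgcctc
Idi1 and Nsdhl each hold 2 CCAAT and 1 GGGCGG, Tubb4b holds 5 CCAAT and 1 GGGCGG, and Tnfrsf12a and B4galt5 hold 5 and 7 GGGCGG and no CCAAT. A promoter was found for 157 of the 191 genes. Among these 157 windows, 39.5% held CCAAT against 36.5% of the 8771 windows of all tested protein-coding genes, and 71.3% held GGGCGG against 61.6%. The palindrome TGACGTCA, to which CREB and ATF proteins bind, stood in 10 of the 157 windows (6.37% against 2.63%). The letters AGAACA, a hexamer of glucocorticoid receptor sites, stood in 5.10% against 10.5%. The sterol regulatory letters TCACNCCAC stood in 2.55% against 1.00%, and in neither Idi1 nor Nsdhl. In all, 13 motifs were searched on both strands without a test, the letters of some overlap, and the members' windows are richer in G and C (median 62.4% against 60.4%).

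On the deposited FPKM this pattern was more common than any other arrangement of the groups. The mirror image, every Ang II mouse below all others, held for 37 genes (0.333%). Genes with every Control mouse above or below all others made up 0.162% and 0.981%, and those with every Ang II + QDG mouse above or below all others made up 0.207% and 0.162%. Each condition of the rule alone was met more often, since the lowest Ang II mouse was above every Control mouse in 728 genes (6.55%) and the highest Ang II + QDG mouse below every Ang II mouse in 394 (3.55%). The order depended on the scaling. With every mouse scaled to the same median 66 genes were high only and 99 low only in Ang II, and with quantile normalization 69 and 120.

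Most of the steps were small. The lowest Ang II mouse exceeded the highest other mouse by a factor with a median of 1.03 and a maximum of 1.37, and by 1.1 or more in 30 of the 191 genes. The Ang II mean was at least 2 times both other means in 6 genes and at least 1.5 times in 25. On the log2(FPKM + 1) scale, on which all log2 differences here are given, the median difference of Ang II from Control was 0.36 (0.08 over all tested protein-coding genes) and that of Ang II + QDG from Ang II was -0.32 (-0.02 over all). At the edge of the rule, Opa3, Ippk and Psmd13 were inside with ratios of the lowest Ang II mouse to the highest other mouse of 1 to 1.0002, and Nr1d1, C1qbp and Trir were outside with ratios of 0.9991 to 0.9999.

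**Figure D1:**
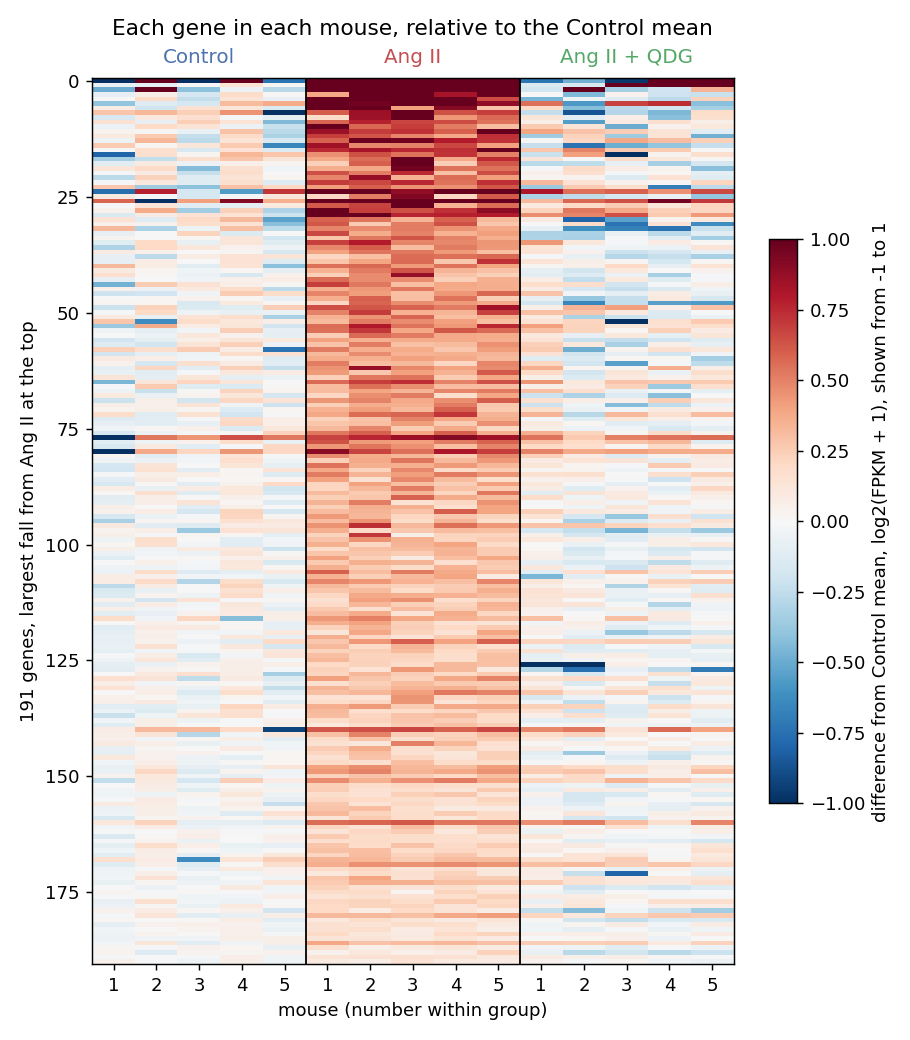
Heat map of the 191 genes (rows, ordered by how far the Ang II mean lay above the higher of the other means) in the 15 mice (columns, 5 per group), as the difference from the Control mean of the gene in log2(FPKM + 1), with colours ending at -1 and 1. The Ang II columns are red throughout, most rows only faintly, and a few rows near the top have single Control or Ang II + QDG mice that approach the Ang II level.

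The rule sets every Ang II mouse above all others in each gene, so the values per mouse are a description. The median of the 191 genes against their Control means was 0.32 to 0.37 in the 5 Ang II mice, -0.03 to 0.06 in the Control mice and -0.01 to 0.06 in the Ang II + QDG mice. Each Ang II mouse was the lowest of its group in 22 to 47 of the genes. The mouse that came closest from outside was a Control in 92 genes and an Ang II + QDG mouse in 99.

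Tnfrsf12a, the receptor (Fn14) of the cytokine TWEAK, which injured tubules express, had the widest separation of all. It stood at 8.40, 9.46, 10.1, 11.2 and 11.6 FPKM in the Control mice. The Ang II mice had 16.4, 23.0, 24.99, 25.1 and 31.1 FPKM, and the Ang II + QDG mice 7.05, 8.25, 9.12, 9.72 and 12.03. The Ang II values lay apart from all others by a factor of 1.37, while Control and Ang II + QDG overlapped over most of their range. The group means were 10.2 ± 1.31, 24.1 ± 5.26 and 9.23 ± 1.86 FPKM (mean ± SD, n = 5), a 2.38-fold and a 2.61-fold excess of Ang II. The gene lies at chr17:23675445-23677468 (GRCm38, minus strand), has 1 listed transcript, and met the rule under every scaling tried. It was the single member among 24 genes of TNF ligands, receptors and NF-kB feedback and among 30 of tubular injury and repair. List genes that were not members were tested by limma with Benjamini-Hochberg adjustment over the 12372 annotated genes of the fit. Since the rule took out genes that were high in Ang II, counts over the rest of a list are a description and cannot exceed those of the whole list. Of the other 23 and 29 genes, 2 and 2 were called higher in Ang II than in Control and 0 lower, beside 4.99% higher and 0.900% lower of all protein-coding genes. These were Nfkb2 (0.47, adjusted p = 0.0241) and Tnfrsf21 (0.61, adjusted p = 0.0268, and 0.0894 under median scaling) of the former list, and the keratin gene Krt7 (0.83, adjusted p = 0.0149) and the tight junction gene Cldn4 (0.91, adjusted p = 0.0116) of the latter.

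Fkbp5, a co-chaperone of steroid receptors that glucocorticoids induce, was low and even in both other groups. Control mice ranged from 31.9 to 41.0 FPKM and Ang II + QDG mice from 26.2 to 37.0. The Ang II mice had 47.3, 64.4, 80.1, 99.0 and 210 FPKM (100 ± 64.2, n = 5). Mouse 3 of the Ang II group stood far above the next, and the other 4 were still above all 10 remaining mice. The same mouse was also the highest for Kyat1, a kynurenine aminotransferase, at 112 FPKM (the other Ang II mice 47.7 to 75.9, the other groups 31.0 to 47.1), and for Acly and Col4a3 below.

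Lap3, a cytosolic leucine aminopeptidase, had the largest rise of the set and lay at separate levels among the Ang II + QDG mice. The Control mice held 23.2, 23.7, 24.96, 25.1 and 27.5 FPKM, and the Ang II mice 207, 216, 219, 263 and 270. Of the Ang II + QDG mice, 1 and 2 were at 22.4 and 22.2 FPKM, just below the Control range, and the other 3 were at 163, 169 and 170. The mean of 109 ± 79.3 FPKM (n = 5) therefore describes none of the Ang II + QDG mice. Nearly all of the signal came from the protein-coding transcript, with 23.8, 233.6 and 108 FPKM in the 3 groups, against means of 0.458 to 0.849 FPKM for the others.

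Phb2, prohibitin 2 of the inner mitochondrial membrane, had the largest excess over both other means on the log2 scale and also lay in steps within groups. The Control mice had 3.29, 4.27, 5.70, 27.8 and 38.2 FPKM, the Ang II mice 59.5, 64.3, 71.0, 76.9 and 78.6, and the Ang II + QDG mice 4.72, 5.75, 6.98, 43.2 and 54.0. Both outer groups thus held 3 mice at 6.98 FPKM or less and 2 at 27.8 FPKM or more, and the fold of the means (4.42 and 3.05) rests on how many mice were at the lower level. In all, 12 of the 191 genes had a step of at least 2-fold, on FPKM + 1, between neighbouring mice of 1 group. Tuba1a had 1 Control mouse at 1.47 FPKM against 14.2 to 21.5 in the rest, Mrpl38 had 1 at 5.00 against 34.9 to 40.4, and Atp11a, a phospholipid flippase, had 1 at 25.7 against 76.9 to 89.1. Ndufv1, a subunit of respiratory complex I, had mice 1 and 2 of Ang II + QDG at 32.5 and 37.4 FPKM against 92.8 to 97.0 in the other 3, which are the mice with the low and the high Lap3 values.

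**Figure D2:**
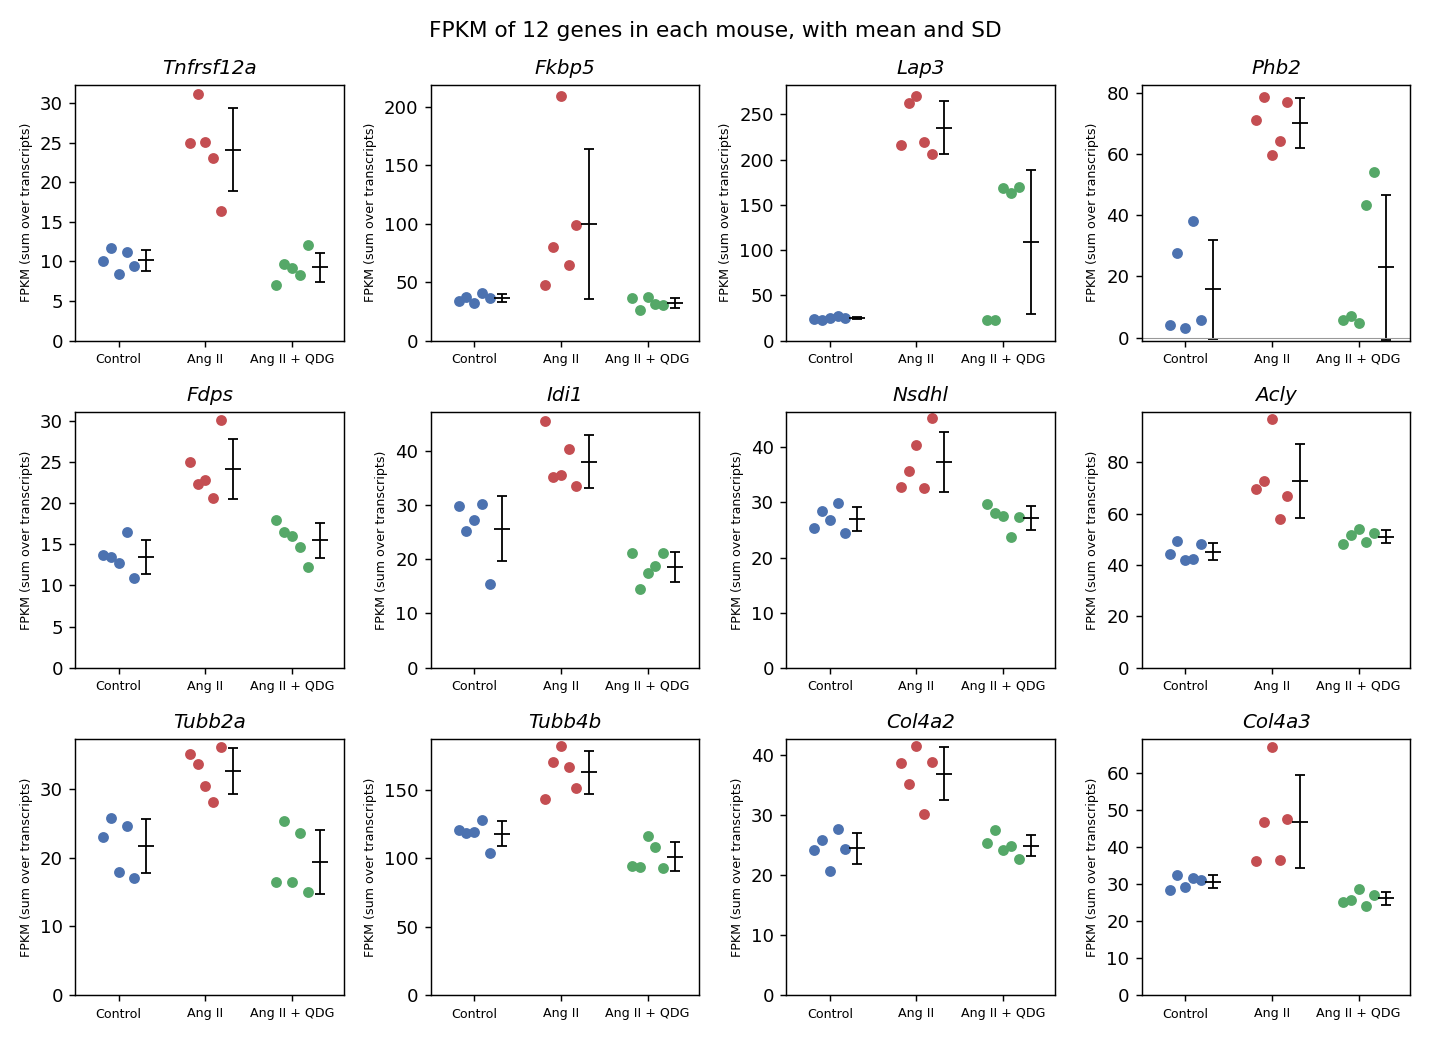
FPKM (sum over transcripts) of 12 genes in every mouse, 1 panel per gene, with the mean and SD of the 5 mice of each group beside the points. In every panel the Ang II points lie above all others by the rule. Lap3 and Phb2 split within Ang II + QDG, and Phb2 also within Control.

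Among the other genes with large falls was B4galt5, which makes lactosylceramide. Control mice had 15.3 to 25.1 FPKM, Ang II mice 31.4 to 36.7 and Ang II + QDG mice 14.1 to 23.98, a separation by a factor of 1.248. Pkig, an inhibitor of protein kinase A, had 12.1 to 21.3, 30.8 to 40.6 and 10.6 to 27.8 FPKM, where values without a group name stand, here and further on, in the order Control, Ang II and QDG-treated. Of its Ang II + QDG mice 2 lay below the Control range and 3 above it. Col16a1, a fibril-associated collagen, was a low-level gene at 2.65 to 3.37 FPKM in Ang II, with 1 mouse in each other group at 2.31 and 2.62 FPKM and the remaining 8 at 0.783 FPKM or less. Bysl, needed for assembly of the small ribosomal subunit, went from 3.73 ± 0.227 to 5.37 ± 0.650 and back to 3.65 ± 0.362 FPKM.

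Of the most abundant members, Ybx1, an RNA-binding cold shock protein, had 421 to 459 FPKM in Control, 529 to 674 in Ang II and 341 to 477 after Ang II + QDG. Cndp2 (a cytosolic dipeptidase), Slc25a3 (the mitochondrial phosphate carrier), Nme2 (a nucleoside diphosphate kinase), Hnrnpa2b1 (an RNA-binding protein) and Pth1r (the parathyroid hormone receptor of the tubule) had Ang II means of 275 to 515 FPKM. Their Ang II means were 0.14 to 0.48 log2 units above the higher of the other means, the lowest being Slc25a3, at 0.07 under median scaling and under quantile normalization. For Cndp2 the lowest Ang II mouse had 461.6 FPKM and the highest Control mouse 461.4.

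Of the 191 genes, 49 are on at least 1 of 26 pathway lists and 142 are on none. The share of members was highest among tubulins and tubulin-folding genes, at 5 of 16 (31.2%), and in cholesterol and fatty acid synthesis, at 5 of 36 (13.9%). It was 6 of 56 (10.7%) in splicing regulators, 6 of 68 (8.82%) in translation factors, 3 of 34 (8.82%) in endoplasmic reticulum stress and ATF4 targets and 6 of 78 (7.69%) in nuclear-encoded oxidative phosphorylation, beside 1.72% of all genes tested. All these shares are on the deposited FPKM. No member came from the lists of actin and SRF targets, immediate early genes, interferon-stimulated genes, cell cycle, lysosome, circadian clock or fatty acid oxidation. With 17 to 42 tested genes each, few or none would be members at 1.72%. In Ang II against Control, limma called 8 of 42 actin and SRF targets higher and 0 lower. For 23 immediate early genes it called 5 and 1, and for 31 interferon-stimulated genes 0 and 12 (all protein-coding genes 4.99% and 0.900%). The remaining lists had 0 to 3 higher and 0 to 2 lower. The lists overlap in a few genes, and members were more frequent among abundant genes, with 4.55% in the highest of 5 equal classes of mean FPKM and 0.450% in the lowest.

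**Figure D3:**
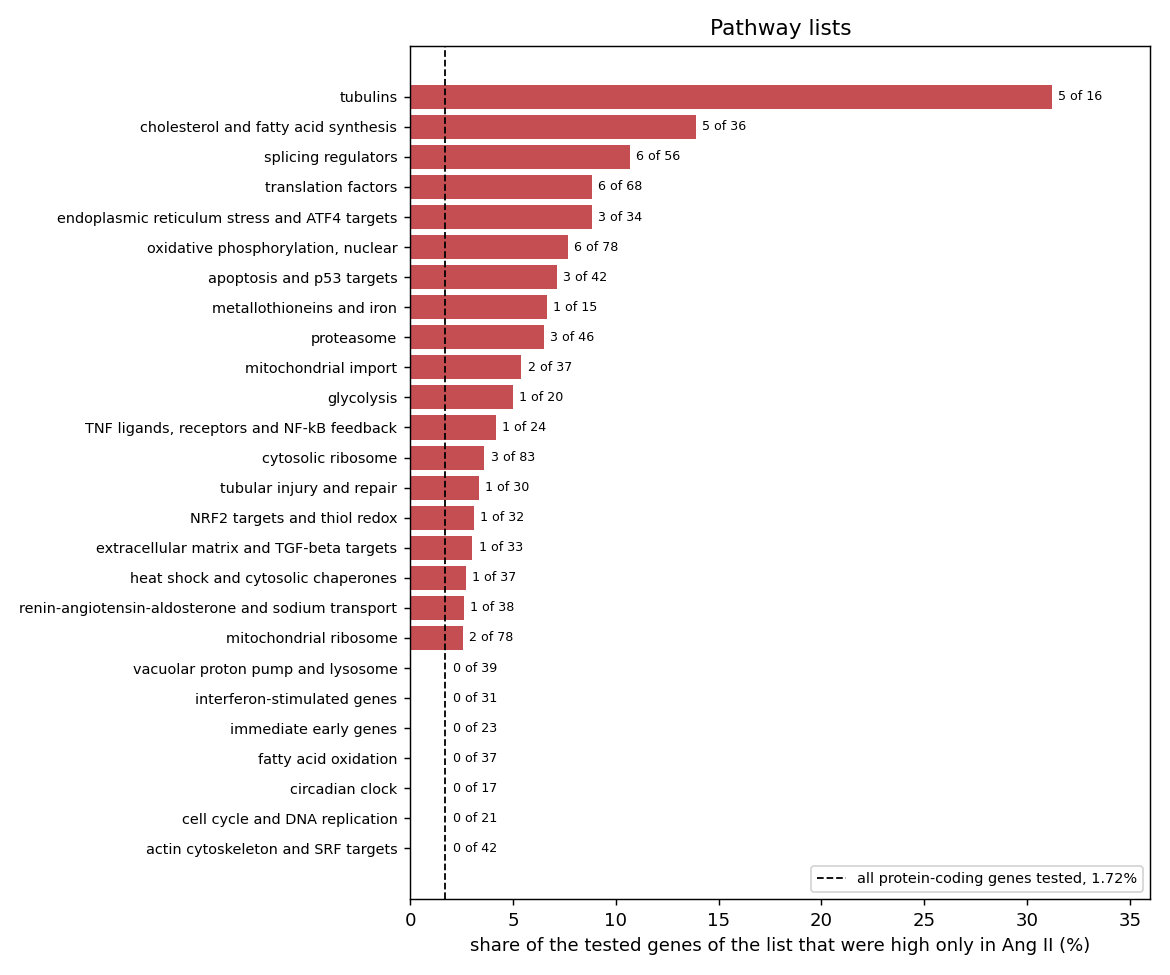
Share of the tested genes on each of 26 pathway lists that were high only in Ang II (bars, %), with the count of members and of tested genes beside each bar, and the share over all tested protein-coding genes as a dashed line at 1.72%. Tubulins and cholesterol and fatty acid synthesis have the longest bars, and 7 lists have no member.

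In sterol and lipid synthesis the members described were Fdps, Idi1, Nsdhl and Acly. Fdps makes farnesyl diphosphate, and its levels were 10.9, 12.7, 13.4, 13.7 and 16.4 FPKM in Control, 20.6, 22.3, 22.8, 24.997 and 30.1 in Ang II and 12.2, 14.6, 16.0, 16.5 and 17.9 after Ang II + QDG. Idi1, the isomerase one step before it, had 15.5 to 30.1, 33.5 to 45.6 and 14.6 to 21.2 FPKM. Nsdhl, which acts late in the path from lanosterol, had 24.4 to 29.9, 32.6 to 45.3 and 23.7 to 29.7 FPKM. In all of them Control and Ang II + QDG overlapped and the Ang II mice lay above. Acly, which supplies cytosolic acetyl-CoA, had 41.8 to 49.3, 57.8 to 96.8 and 48.3 to 53.9 FPKM.

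Of the other 31 genes of the list limma called 4 higher and 1 lower in Ang II than in Control (all protein-coding genes, members included, 4.99% and 0.900%). Srebf2, the transcription factor that drives the pathway, rose by 0.41 (adjusted p = 0.0121), Pmvk by 0.71 (adjusted p = 0.00841), Msmo1 by 0.71 (adjusted p = 0.0274) and Lss by 0.54 (adjusted p = 0.024) on the log2 scale. Abca1, which exports cholesterol from cells, fell by 1.19 (adjusted p = 0.00564). When QDG was added to Ang II, limma called 1 of the 31 higher and 0 lower (all protein-coding genes 0.459% and 1.29%). At an unadjusted p under 0.05 in either direction there were 6 of the 31, beside 2032 of all 12372 genes. The gene called higher was Abca1, at 0.86 (adjusted p = 0.0295). After scaling every mouse to the same median the call of Msmo1 was lost (adjusted p = 0.051) and the calls of Srebf2, Pmvk, Lss and Abca1 stood.

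The 5 tubulin genes were Tubb2a, Tubb4b, Tuba1a, Tuba1c and Tubb6, which encode beta and alpha subunits of microtubules. Tuba1c was the tightest, with 37.0 to 43.1 FPKM in Control, 51.0 to 54.3 in Ang II and 31.8 to 41.2 after Ang II + QDG. Tubb4b, the most abundant of them, had 104 to 128, 143 to 182 and 92.8 to 116 FPKM. Tubb2a had 17.0 to 25.8, 28.1 to 36.1 and 15.03 to 25.3 FPKM. For these 3 genes the Ang II + QDG mean was below the Control mean, and for Tuba1a and Tubb6 it was above. Tubulin genes are close paralogs, and 2 of these members have pseudogenes named for them in the annotation, so that reads may be shared between copies. Of the 11 tubulin-list genes that were not members limma called 1 higher and 0 lower (all protein-coding genes 4.99% and 0.900%). It was the folding cofactor Tbce, higher in Ang II than in Control, by 0.43 (limma adjusted p = 0.0166), and that call was lost under median scaling (adjusted p = 0.067).

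Basement membrane and matrix contributed Col4a2, the type IV collagen chain of most basement membranes, and Col4a3, a chain of the glomerular basement membrane. Col4a2 had 20.6, 24.1, 24.3, 25.9 and 27.6 FPKM in Control, 30.2, 35.2, 38.8, 38.8 and 41.6 in Ang II and 22.7, 24.1, 24.8, 25.4 and 27.6 after Ang II + QDG. Ang II + QDG and Control covered nearly the same range. Col4a3 had 28.3 to 32.6, 36.3 to 67.1 and 24.1 to 28.8 FPKM, and only Col4a2 is on the list of extracellular matrix and TGF-beta targets. Of the other 32 genes of that list, 5 were called higher in Ang II than in Control and 0 lower (4.99% and 0.900% of all protein-coding genes). Under median scaling and under quantile normalization 3 of 30 were called higher. The 5 included Col4a1 (0.61, limma adjusted p = 0.0407, and 0.091 under median scaling) and Eln, elastin (1.06, adjusted p = 0.0111).

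Beside Phb2, the mitochondrial members included genes of oxidative phosphorylation, Ndufa2, Ndufa8, Ndufb6 and Ndufv1 of complex I, Atp5d of the ATP synthase and Cycs, cytochrome c. Cycs had 92.7 to 128 FPKM in Control, 144 to 162 in Ang II and 95.2 to 119 after Ang II + QDG. Ndufa2 had 110 to 152, 157 to 190 and 120 to 155 FPKM. Of the other 72 genes of this list, 13 were called higher by limma in Ang II than in Control and 0 lower (4.99% and 0.900% of all protein-coding genes). Median scaling left 2 higher and 0 lower, and quantile normalization 8 higher and 1 lower. The mitochondrial ribosome gave Mrpl12 and Mrpl38, and protein import into mitochondria gave Timm10 and Gfer. Transcripts of the mitochondrial genome moved the other way: they took 15.36% to 16.02% of all FPKM in the Ang II mice, 18.55% to 20.72% in Control and 16.95% to 19.83% in Ang II + QDG. With them left out of the sum, 145 of the 191 genes still met the rule.

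Genes of RNA handling and protein quality control made up further members. Srsf2, a splicing factor of the SR family, had 39.2 to 66.1 FPKM in Control, 69.2 to 89.4 in Ang II and 55.6 to 68.2 after Ang II + QDG. Hnrnpab had 46.9 to 75.6, 92.0 to 109 and 69.9 to 88.6 FPKM, and Srsf3, Hnrnpa0, Hnrnpa2b1 and Hnrnpul2 completed the splicing members. Psmb5, a catalytic subunit of the proteasome, was nearly constant in the Ang II mice at 168, 169, 170, 171 and 174 FPKM, against 115 to 143 in Control and 111 to 145 in Ang II + QDG. Psmd13 and Psme3 were the other proteasome members, Pgam1 the single member of glycolysis and Slc30a1, a zinc exporter, that of metallothioneins and iron. Creld2, Dnajb11 and Sel1l act in folding and disposal of proteins of the endoplasmic reticulum. Creld2 had 14.8 to 17.7 FPKM in Control, 19.2 to 25.3 in Ang II and 10.2 to 14.4 after Ang II + QDG, so that all 5 Ang II + QDG mice lay below all Control mice. Translation factors were Eif2b4, Eif6, Eef1e1, Eif4h, Eif3b and Eif3g, and ribosomal proteins Rpl10a, Rpl15 and Rpl36al. Of the other 62 translation factors limma called 2 higher and 2 lower in Ang II than in Control (all protein-coding genes 4.99% and 0.900%). Median scaling gave 0 and 8. For the other 50 splicing regulators the counts were 8 and 0, and 4 and 1 under median scaling. For the other 31 genes of endoplasmic reticulum stress they were 2 and 0, and 0 and 0. Over all 12356 genes median scaling gave 209 higher and 286 lower.

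Slc9a3, the sodium-proton exchanger NHE3 of the proximal tubule, was the single member among 38 tested genes (2.63%) of the renin-angiotensin-aldosterone system and sodium transport, with 35.4 to 47.0 FPKM in Control, 48.4 to 57.6 in Ang II and 30.001 to 45.9 after Ang II + QDG. Of the other 37 genes of that list 3 were called higher and 1 lower in Ang II than in Control (4.99% and 0.900% of all protein-coding genes), the latter being Ace, which makes Ang II (-0.63, limma adjusted p = 0.0382), and the former including Scnn1a, a subunit of the sodium channel ENaC (0.49, adjusted p = 0.0175, and 0.051 under median scaling). Srxn1, sulfiredoxin, was the single one among 32 genes (3.12%) of NRF2 targets and thiol redox, with 13.6 to 30.8, 33.7 to 40.9 and 8.62 to 32.6 FPKM. Apoptosis and p53 targets, a theme of the study, had 3 members of 42 (7.14%), Cycs, Tuba1c and Tigar, of which Tuba1c encodes a tubulin. Of the other 39 genes of that list limma called 0 in either direction in Ang II against Control (all protein-coding genes 4.99% higher and 0.900% lower). Their median difference was 0.01, with 5 at an unadjusted p under 0.05, beside 2814 of all 12372 genes. When QDG was added to Ang II, 0 were called (0.459% and 1.29%), with 4 at an unadjusted p under 0.05, beside 2032 of 12372. The rule had taken high genes out of these counts. The study's own evidence was of other kinds: pathway enrichment of transcripts, protein levels of p53 and apoptosis factors, and staining of apoptotic cells.

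None of the 191 genes was among the markers of 16 kidney, vascular, blood and other cell types. Each list held 0 to 15 tested markers, so that few or none would be members at the share of 1.72% over all genes. Kidney markers were present, such as Umod, the thick ascending limb protein, with means of 1023 FPKM in Control, 924 in Ang II and 1177 after Ang II + QDG. The summed level of 7 podocyte markers was 86.5 to 101 FPKM in Control, 115 to 146 in Ang II and 119 to 145 after Ang II + QDG. That of 9 macrophage markers was 196 to 309, 149 to 214 and 149 to 464.5. No marker of T and NK cells reached the level tested. As for podocytes and macrophages, the sums of every other list with a tested marker overlapped between Ang II and at least 1 other group. The part of cell composition in the levels of the 191 genes was not tested.

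The contrast left free by the rule is Ang II + QDG against Control, although both groups are bounded above by the lowest Ang II mouse. None of the 191 genes was called by limma in either direction at an adjusted p under 0.05 (all protein-coding genes 0.0990% higher and 0.0180% lower). At an unadjusted p under 0.05, 19 were higher and 15 lower in Ang II + QDG (9.95% and 7.85% of the members), against 10.8% and 3.73% of all protein-coding genes. The Ang II + QDG mean was above the Control mean in 105 genes and below it in 86, with a median difference of 0.01 (0.06 over all tested protein-coding genes). The p-values measure only the spread between these mice. A missing call does not show that a gene was back at its Control level, and for Lap3 the 95% confidence interval of the difference ran from 0.42 to 2.70 on the log2 scale.

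Separation of all 3 groups was seen in 4 genes, picked here after their values were seen. All 5 Ang II + QDG mice lay above all Control mice for Eif3g, Chst1 and Esrra, and below them for Creld2, beside 2.86% above and 0.873% below among all tested protein-coding genes. Eif3g, a subunit of initiation factor 3, had 23.1 to 28.2 FPKM in Control, 32.6 to 35.4 in Ang II and 29.3 to 31.8 after Ang II + QDG. Its Ang II + QDG mean was 0.27 above Control (95% confidence interval 0.15 to 0.39, limma adjusted p = 0.0771). Chst1, a sulfotransferase for keratan sulfate, had 0.703 to 1.18, 2.35 to 3.94 and 1.37 to 2.10 FPKM, a difference of 0.46 (0.19 to 0.72, adjusted p = 0.130). Creld2 was 0.44 lower in Ang II + QDG than in Control (adjusted p = 0.0867). Esrra encodes an orphan nuclear receptor of mitochondrial biogenesis.

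**Figure D4:**
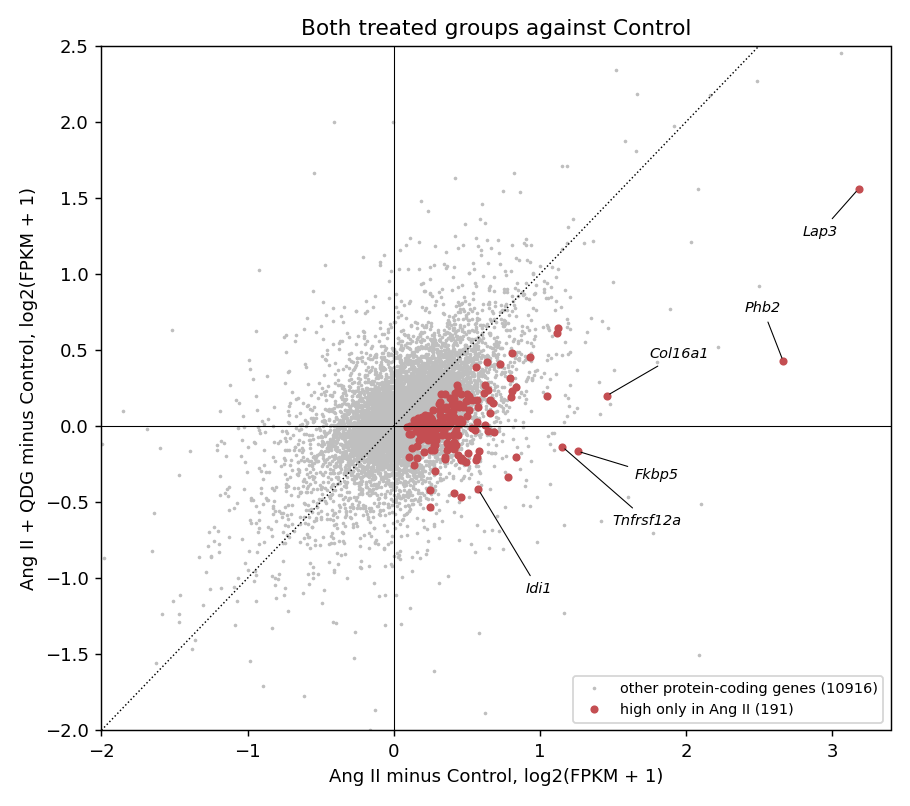
Ang II minus Control (x axis) and Ang II + QDG minus Control (y axis), both as differences of mean log2(FPKM + 1), for the 191 genes (red) and 10916 other protein-coding genes (grey, 12 of them beyond the axes), with the dotted line where both are equal. Both axes share the Control mice, and the red points lie right of 0 and below the line by the rule, spread on both sides of y = 0.

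The members differed from the tested genes as a whole in some features the rule did not use. Their most abundant transcripts were richer in G and C, with a median of 53.9% against 50.6%, shorter, with 2314 against 2741 bases, and had 7 against 8 exons. In 5 equal classes of GC content the share of members went from 0.855% and 0.946% in the lowest classes to 2.75% and 2.34% in the highest, and the genes that were not members moved along, with a median Ang II minus Control difference from 0.01 in the lowest class to 0.17 in the highest. Members lay on all autosomes and X, from 0.362% of the tested genes on chromosome 3 to 3.95% on chromosome 19. Whether base composition shaped the libraries was not tested. A recount with the median of each GC and length class taken out of every mouse left 71 of the 191 genes in the set.

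Many sums rested on several transcripts. A single listed transcript gave the value in 73 genes and 2 to 13 in 118. Of the 118, no transcript met the rule by itself in 60, and the most abundant did in 51. The transcript with the largest rise in FPKM was of protein-coding type in 181 genes, a retained intron in 6, a product of nonsense-mediated decay in 3 and a processed transcript in 1.

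The size of the set depended on the scaling. With every mouse scaled to the same median over the genes tested 58 of the 191 genes still met the rule, and with quantile normalization 64. Tnfrsf12a, Fkbp5, Lap3, Phb2, Fdps, Idi1, Tubb2a, Tuba1c, Tubb6, Col4a2, Col4a3, B4galt5, Psmb5 and Ybx1 were among 43 genes that met it under each of 3 other scalings. The median excess of the Ang II mean over the higher of the other means was 0.44 in these 43 genes and 0.26 in the rest. Nsdhl, Acly, Tubb4b, Tuba1a, Slc9a3, Cycs, Creld2 and Srsf2 were not among them.

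**Figure D5:**
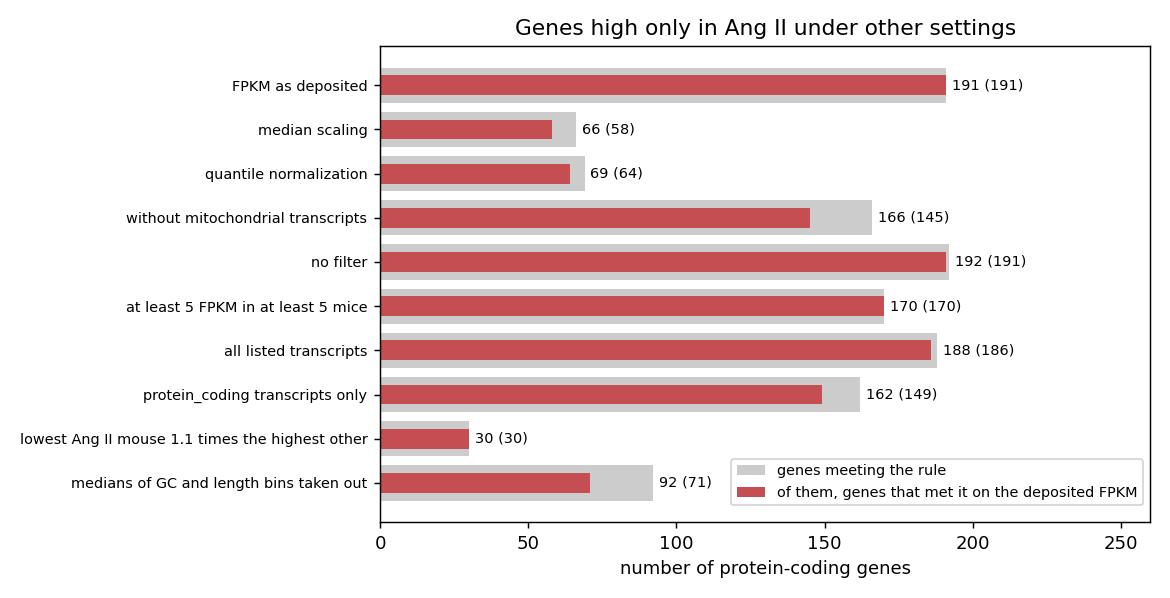
Number of protein-coding genes high only in Ang II under 10 settings (grey bars), and how many of them were among the 191 (red bars and numbers in parentheses). Median scaling and quantile normalization leave the shortest bars apart from the wider separation of 1.1 times, and filters and the choice of transcripts change the count little.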

How the data were processed

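Total RNA of whole renal tissue was depleted of ribosomal RNA and sequenced, 1 library per mouse. The study's methods also name a kit for isolating poly(A) mRNA after the depletion. The deposited values are FPKM per transcript, which the authors computed for 15 mice; the submitters' processing notes name the genome build mm10 and limma. The files hold no counts; the low FPKM are whole multiples of 1 read for 98.4% to 98.7% of values under 200 reads (within 0.05 reads), which implies totals of 68922800 to 81329500 fragments per mouse. No count test was run, since the values are not counts.

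Of 43733 transcripts, 40054 were listed in all 15 files and 28871 of these were annotated in GENCODE M21 (GRCm38). Their FPKM were summed per gene. Control files listed 41477 transcripts and the others 42310, so 2383 annotated transcripts were left out, among them transcripts of 17 of the 191 genes.

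Genes reaching 1 FPKM in 5 or more mice were fitted with limma 3.58.1 (R 4.3.3, moderated test with trend). The 15 mice shared a single model of log2(FPKM + 1) with 1 mean for each group. Tests were two-sided with Benjamini-Hochberg adjustment over 12372 genes, called at an adjusted p under 0.05, and the code was tested on simulated data. Genes, their lists and the rule for naming them were chosen with earlier results of these data known. That rule took the 12 members with the largest excess of the Ang II mean, the 6 most abundant, the 6 with the widest separation, up to 4 per pathway list, any called in Ang II + QDG against Control, and 3 on each side of the edge. Atp5d, Chst1, Col4a3, Eif3b, Eif3g, Esrra, Hnrnpul2, Ndufv1, Nsdhl and Tubb6 lie outside it and were chosen after their values were seen. Some genes that the rule takes are not reported here. Alternatives were other scalings, filters, pseudocounts, transcript sets and leaving out each mouse.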

Additional observations from a re-analysis of the deposited data

Results flagged for a closer look

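Dixon's test at the 95% level marked 13 of 174 groups of 5 mice (7.47%). The genes were chosen on the values of these same mice. The rate of about 1 in 20 for unselected values is therefore no reference, and the marks are a description. In Control, Col16a1 was high in mouse 2 (2.31 FPKM, next 0.352), Mrpl38 was low in mouse 1 (5.00, next 34.9), Atp11a was low in mouse 5 (25.7, next 76.9), and mouse 3 was low for Rpl10a, a ribosomal protein (129 FPKM, next 171), and Ippk, an inositol phosphate kinase (1.32 FPKM, next 2.796). In Ang II, Col16a1 was high in mouse 1 (3.37 FPKM, next 2.85), Psmd13, a proteasome subunit, in mouse 2 (59.1 FPKM, next 41.9) and Sel1l, of endoplasmic reticulum-associated degradation, in mouse 3 (28.5 FPKM, next 24.2). In Ang II + QDG, mouse 2 was high for Col16a1 (2.62 FPKM, next 0.783) and low for B4galt5 (14.1, next 22.1) and Mrpl38 (30.7, next 36.5), Psmb5 was high in mouse 1 (145 FPKM, next 121) and Srsf3 in mouse 3 (34.0 FPKM, next 31.2).

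Outside the protein-coding genes, 36 of 7791 assembled transcripts without an annotated identifier (0.462%) were high only in Ang II and 12 were low only in Ang II. Of 1265 other annotated genes 12 were high only in Ang II, among them the small RNA gene Gm27505 with means of 108 FPKM in Control, 427 in Ang II and 222 after Ang II + QDG.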

How the results depend on the processing

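The number of genes high only in Ang II (191) became 66 with median scaling, 69 with quantile normalization, 30 when a separation by a factor of 1.1 was asked for, and 92 with the medians of GC and length classes taken out, an alternative chosen after seeing the data. It was 162 to 192 under the other filters, transcript sets and the sum without mitochondrial transcripts. Leaving out 1 mouse gave 197 to 332, the latter without Ang II replicate 3, since fewer mice make the rule easier to meet.

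Over the 12372 annotated genes, limma called 612 higher and 123 lower in Ang II than in Control. Median scaling gave 209 and 286, quantile normalization 226 and 268, and protein-coding transcripts alone 325 higher. For Ang II + QDG against Ang II, 65 higher and 159 lower became 68 and 99, and 97 and 96, under these scalings, and 41 higher with protein-coding transcripts. For Ang II + QDG against Control, 12 higher and 4 lower became 10 and 12, and 8 and 7, and 5 and 1 with protein-coding transcripts. The cause was not tested. Leaving out each mouse gave 271 to 687 higher and 67 to 113 lower in the first contrast, 7 to 63 and 43 to 197 in the second and 0 to 91 and 0 to 19 in the third, which had 91 and 19 without Control replicate 2 and 0 and 0 without Control replicate 4 (1498 genes at an unadjusted p under 0.05).

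Of 1159 values of the 58 genes named by rule under alternatives, 64 were marked as moved. The mark does not mean a shift beyond the spread between mice in every group. For Phb2 the excess of the Ang II mean was marked at 1.893 without Ang II + QDG replicate 3, against 2.24 with all mice. Its Ang II + QDG mice ranged from 4.72 to 54.0 FPKM. No paired analysis was possible because the labels give no replicate numbers that tie mice across groups. Members of low FPKM, such as Col16a1, lay near the filter of 1 FPKM in the Control and Ang II + QDG groups. Reads per gene were not counted.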
